A study of Rattus norvegicus with 12 samples.

Results

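The genes of DNA replication and mitosis were followed in bronchi of rats that had inhaled 2,3-pentanedione (PD), a butter flavoring vapor, or filtered air. The members are 60 genes of the cell cycle, taken by their symbol in the annotation of the array: 13 that act in S phase and 47 that act in mitosis or on entry into it. Of these, 53 had a probe set of their own among 14217 genes measured, 12 of S phase and 41 of mitosis. Cdc25c, Ndc80, Tpx2, Kif4a and Ncapg had no probe set under their symbol, and the probe sets of Rrm2 and Anln carry 2 gene symbols each, so these 7 members have no value. For the 14 members with several probe sets, the brightest one by mean log2 signal over the 12 arrays was used.

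The series holds 12 arrays of male Wistar Han rats (Wistar in the labels) that were 6 to 7 weeks old on arrival. Fibrotic bronchi of PD-exposed rats gave 3 arrays (replicates 3, 7 and 9), non-fibrotic bronchi of PD-exposed rats gave 3 (replicates 4, 8 and 10) and normal bronchi of air-exposed controls gave 6 (replicates 1 to 6). PD was inhaled at 200 ppm for 6 hours a day on 12 days, a period that the labels give as 2 weeks. The methods describe fibrotic tissue of 5 PD-exposed rats and non-fibrotic tissue of 3 of the same rats. The labels do not tie a specimen to a rat, so p-values between the exposed groups take no account of rats that gave both tissues. Fibrotic specimens held the fibrotic polyps or plaques of the lumen, with the bronchial wall beneath them. Non-fibrotic and control specimens held epithelium and the wall beneath it, so the groups differ in the tissue cut. A signal is a mean over many cell types, and fewer dividing cells cannot be told apart from less RNA for each dividing cell.

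A dividing cell copies its DNA in S phase and parts the copies in mitosis, and most of the proteins for each step are made only when they are needed. Mcm proteins open the DNA at origins, PCNA clamps the polymerase to it, and thymidylate synthase, thymidine kinase and ribonucleotide reductase supply the nucleotides. Cyclin B with Cdk1 starts mitosis, kinetochores and spindle motors move the chromosomes, and the anaphase-promoting complex ends it. In a resting airway few epithelial or connective tissue cells divide, and injury brings many of them into the cycle. In resting cells the DREAM complex keeps these genes silent through E2F and CHR elements, and MuvB with B-Myb and FoxM1 later activates the mitotic ones.

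All values below are log2 of the MAS5 signal of a probe set, and a difference of 1 is a doubling of the signal on this scale. Transcripts that were not in the samples gave log2 signals up to 6.52, and a change to or from a group whose arrays all lie under that level is given as a lower bound. The value of 6.52 was of the bacterial trpn transcript on a fibrotic array. This transcript reached 6.29 on non-fibrotic and 5.08 on control arrays, and the 1 level was used for all groups. A gene is said to have risen or fallen where the limma model of the 3 groups gave a Benjamini-Hochberg adjusted p under 0.01 in that comparison. Median signals of all genes lay between 8.12 and 8.62 on the 12 arrays, and the lowest was that of non-fibrotic 8. RNA quality and labels were not even among the groups. The GAPDH probe set at the 3′ end exceeded that at the 5′ end by a log2 of 1.59 to 2.11 on fibrotic arrays and 1.95 to 2.35 on non-fibrotic arrays. On controls 1 and 2 the excess was 1.16 to 2.03, and on controls 3 to 6 it was 0.70 to 0.90, under every exposed array. Controls 3 to 6 carry labels written in another style than those of all other arrays, and bacterial spike transcripts were at 2.31 to 2.33 on controls 1 and 2 against 8.02 or more on every other array. The part of these differences in the results was not tested, and the calls in fibrotic bronchi that each set of controls alone changed are given with the counts.

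Cell cycle genes stood higher in fibrotic bronchi than in control bronchi in both phases. The median S-phase gene had a log2 signal of 9.37, 9.34 and 9.67 on fibrotic arrays 3, 7 and 9, of 9.31, 8.11 and 9.05 on non-fibrotic arrays 4, 8 and 10, and between 7.75 and 8.55 on the 6 control arrays. For the median mitotic gene the values were 8.04, 8.37 and 8.52 on fibrotic arrays, 8.19, 7.61 and 7.61 on non-fibrotic arrays, and between 6.28 and 6.99 on control arrays. All 6 exposed arrays lay above all 6 control arrays in the mitotic median, and in the S-phase median all but non-fibrotic 8 did. Of the 53 members, 6, 7 and 3 were under the level of absent transcripts on the fibrotic arrays, 5, 16 and 8 on the non-fibrotic arrays and 14 to 23 on the control arrays.

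**Figure D1:**
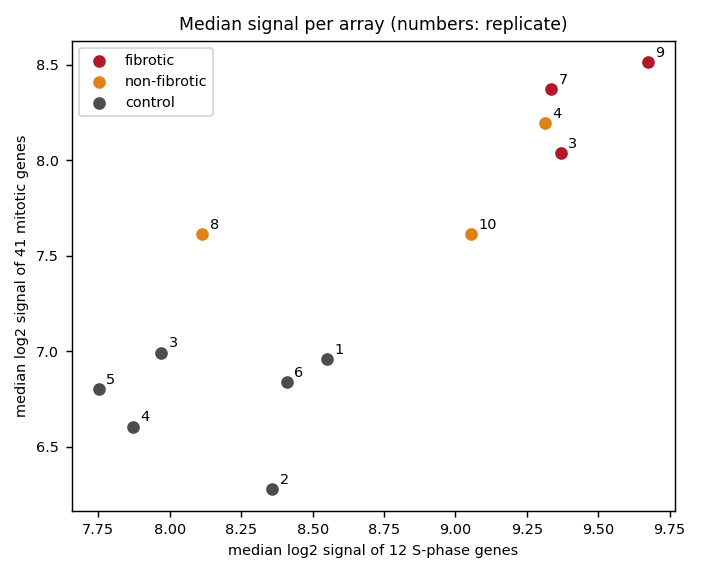
Median log2 signal of the 12 S-phase genes (horizontal axis) and of the 41 mitotic genes (vertical axis), 1 point for each array with its replicate number beside it. The 3 fibrotic arrays lie at 9.34 to 9.67 and 8.04 to 8.52, and the 6 control arrays at 7.75 to 8.55 and 6.28 to 6.99.

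Fibrotic bronchi showed 12 of the 53 members higher than in control bronchi, 3 of 12 S-phase genes and 9 of 41 mitotic genes, where 4.13% of all genes were higher. The 12 were Mcm4, Mcm5, Tyms, Cks2, Melk, Birc5, Cenpk, Nuf2, Kif2c, Hmmr, Mki67 and Cdca3. Lower were 2 members, Aurkb and Cenpf, where 8.38% of all genes were lower. The fitted log2 fold change was above 0 for 49 of 53 members, including all 12 S-phase genes, against 54.6% of all genes. On 27 members, 6 of S phase and 21 of mitosis, every fibrotic array lay above every control array, which held for 15.1% of all genes. The median log2 fold change was 1.04 for S-phase genes, 1.43 for mitotic genes and 0.10 for all genes. When values below the level of absent transcripts were raised to it, these medians were 0.92, 1.04 and 0.00, which brought the phases closer together. The difference between the phases was not tested. At an unadjusted limma p under 0.05, 30 members were higher, 6 of S phase and 24 of mitosis, against 19.2% of all genes, and at an adjusted p under 0.05 there were 21, against 10% of all genes. Cenpe is in both counts and Ttk in that of 30. The fibrotic means and all control arrays of these genes lay under the level of absent transcripts.

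The count of 12 rests on single arrays, fibrotic and control. Without fibrotic 3 or without fibrotic 9 it was 7. Without fibrotic 7, Tyms, Melk, Nuf2, Kif2c and Hmmr lost their call. Leaving out any 1 of controls 3 to 6 lost the calls of Tyms, Nuf2 and Hmmr. Against controls 3 to 6 alone the count was also 12, but with 10 genes in common. Melk (adjusted p = 0.0104) and Hmmr (0.0116) no longer passed, and Mcm3 (0.00535) and Mcm7 (0.00683) did. Of the lower members Cenpf did not pass (0.0181). Against controls 1 and 2 alone only Mcm5 of the higher members and Aurkb of the lower ones passed, although all 12 higher members kept their sign. With the style of the labels as a term in the model, Tyms, Birc5, Nuf2, Kif2c and Hmmr lost their call, as did Cenpf. Under quantile normalization and median centring the count was 14 and 15.

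**Figure D2:**
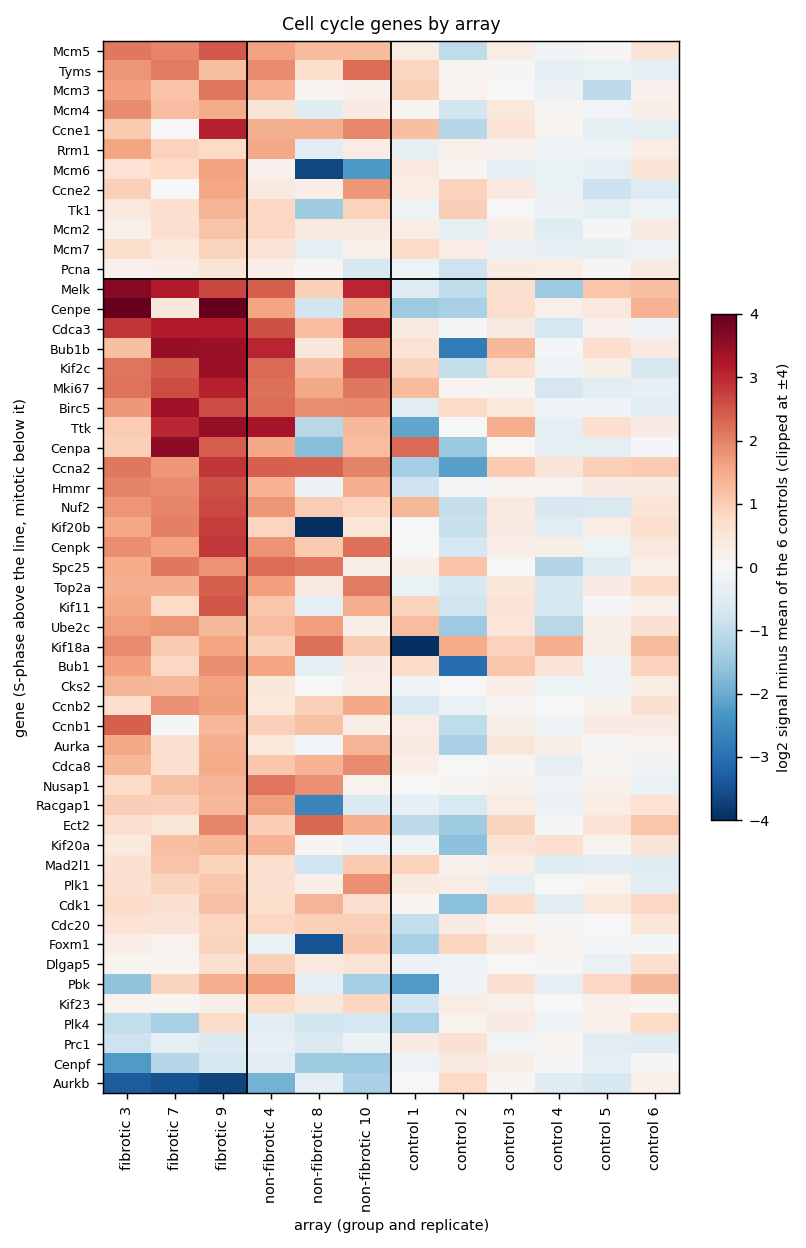
Log2 signal of the 53 members on each array minus the mean of the 6 controls (color scale from -4 to 4), with S-phase genes above the horizontal line and mitotic genes below it, each ordered by the difference between fibrotic and control bronchi. The fibrotic columns are warm for nearly all genes down to Kif23, Aurkb and Cenpf at the bottom are blue, and non-fibrotic 8 has the palest column of the exposed arrays, with deep blue cells at Mcm6, Kif20b and Foxm1.

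In non-fibrotic bronchi of the exposed rats most members also stood above controls, but few passed a test. Mki67 was the 1 member higher than in control bronchi, where 0.183% of all genes were higher, and 0 members were lower, where 0.436% of all genes were lower. At an unadjusted limma p under 0.05, 20 members were higher (13.8% of all genes) and 3 were lower (also 13.8% of all genes), and these 3 were Mcm6, Aurkb and Cenpf. An adjusted p under 0.05 was reached by 8 higher members, against 2.84% of all genes: Mcm5, Tyms, Birc5, Cdca8, Cenpk, Kif2c, Mki67 and Cdca3. Aurkb was the 1 lower member at that level, against 3.72% of all genes. Every non-fibrotic array lay above every control for 12 members (8.4% of all genes) and below for 1, Cenpf (6.37% of all genes). The fold change was above 0 for 43 of 53 members, 10 of 12 of S phase and 33 of 41 of mitosis, against 50.2% of all genes. The median log2 fold change was 0.50 for S-phase genes, 0.91 for mitotic genes and 0.00 for all genes. With low arrays set to the level of absent transcripts, the mitotic median was 0.62.

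Between fibrotic and non-fibrotic bronchi 0 members rose, where 1.47% of all genes did, and 8 had an unadjusted limma p under 0.05 and were higher, where 14.3% of all genes did: Mcm3, Mcm4, Mcm5, Mcm6, Cks2, Hmmr, Kif20b and Racgap1. Of these Mcm4, Mcm6 and Cks2 had an adjusted p under 0.05, which 5.64% of all genes reached. Aurkb was the 1 member lower at the threshold, where 3.83% of all genes were lower. The median log2 fold change was 0.59 for S-phase genes, 0.81 for the 7 replication genes among them, 0.53 for mitotic genes and 0.00 for all genes. These values share the fibrotic and the non-fibrotic arrays with the comparisons against controls and are not separate evidence.

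**Figure D3:**
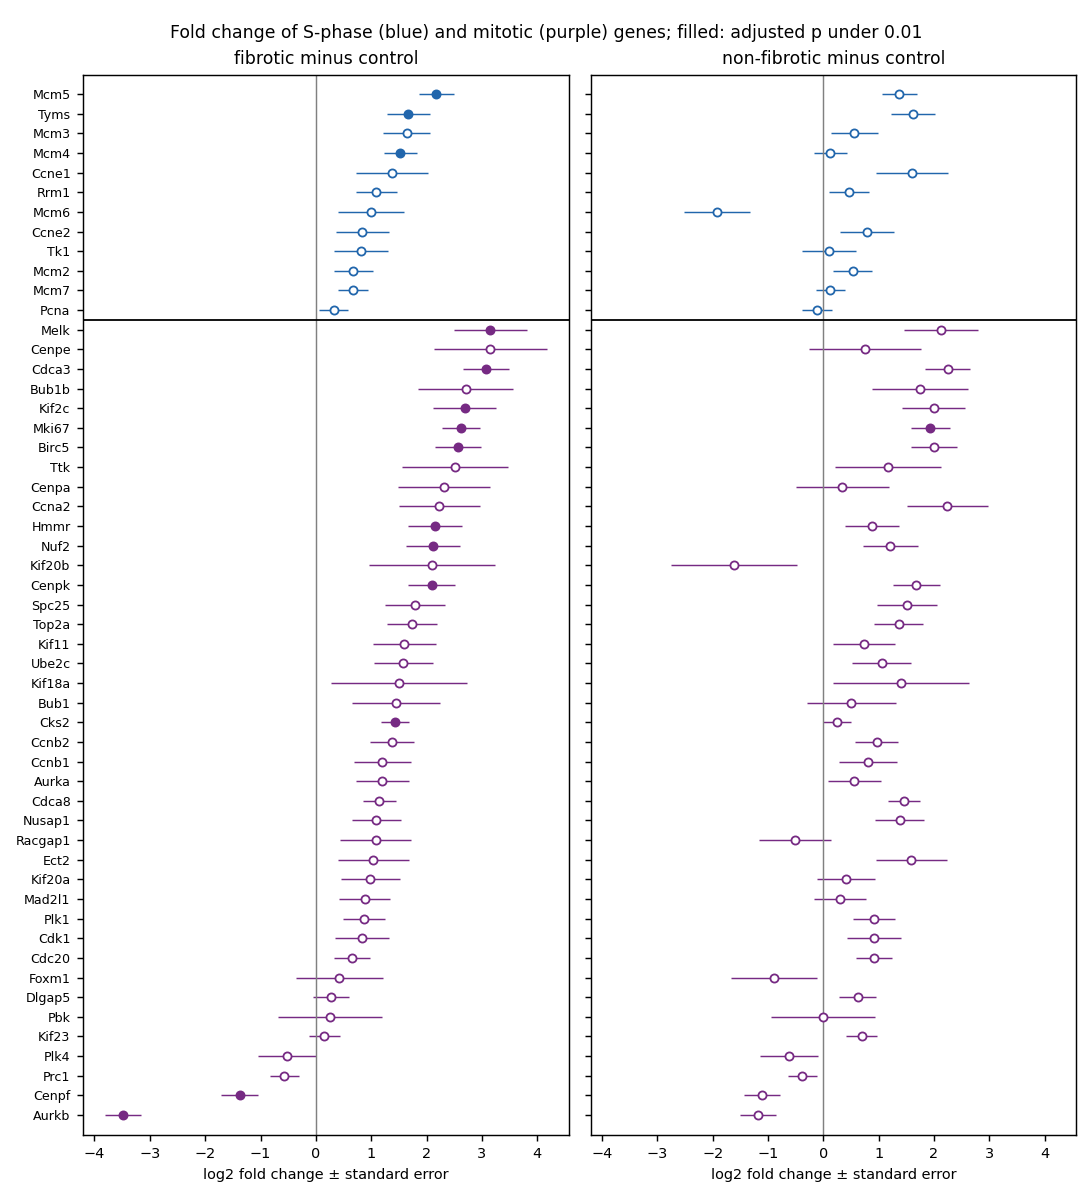
Log2 fold change with its standard error for each member, fibrotic minus control bronchi on the left and non-fibrotic minus control bronchi on the right, with S-phase genes in blue above the line and mitotic genes in purple. Filled points have an adjusted p under 0.01, which are 14 on the left, 12 of them to the right of 0, and Mki67 alone on the right.

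The promoters of the members were searched for the elements known for genes of each phase. RefSeq promoter windows of the rat assembly GRCr8 were matched by symbol for 45 of the 53 members, 10 of S phase and 35 of mitosis, and the 250 bases before the annotated start were searched on both strands. The motifs were the CCAAT box (CCAAT), which binds NF-Y, the cell cycle homology region or CHR (TTTGAA or TTCGAA), which binds MuvB, and 4 strings of the E2F site (TTTCCCGC, TTTCGCGC, TTTGCCGC and TTTGGCGC). An E2F string was found before 5 of 10 S-phase genes (50%), 2 of 35 mitotic genes (5.71%) and 2.94% of 11734 genes on the array. A CHR was found before 30% of S-phase genes, 45.7% of mitotic genes and 12.4% of genes on the array, and a CCAAT box before 60%, 74.3% and 35.1%. Differences between the phases were not tested, and 10 promoters are few for the S-phase shares. Both a CHR and a CCAAT box stood before 15 of 35 mitotic genes (42.9%), 20% of S-phase genes and 4.6% of genes on the array. A match of letters is not a site in use, and the windows say nothing of which factor was bound in these bronchi.

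**Figure D4:**
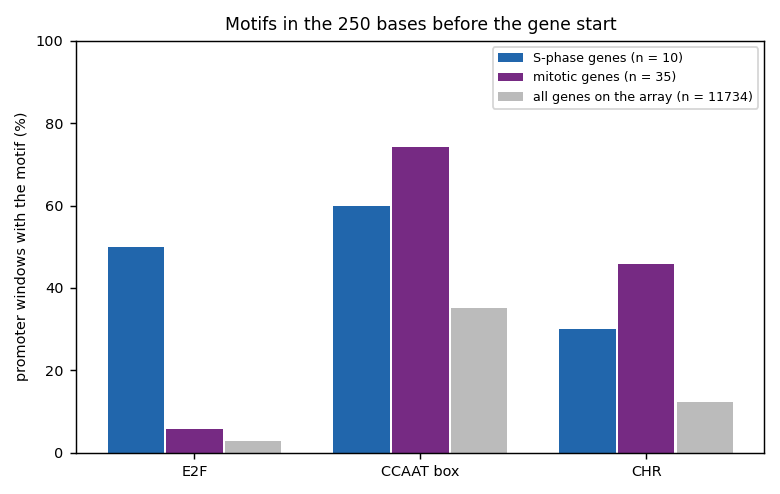
Share of promoter windows, in percent, that hold an E2F string, a CCAAT box or a CHR in the 250 bases before the start, for 10 S-phase genes, 35 mitotic genes and 11734 genes on the array. The E2F bar is at 50% for S-phase genes and at 5.71% for mitotic genes.

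Stretches of 8 of these promoters are shown because their genes rose or, for Cenpf, fell in fibrotic bronchi, and because they hold the motifs in several arrangements: an E2F string close to the start of Mcm5 and Tyms, with 3 CCAAT boxes before it in Mcm5, and CCAAT boxes with or without a CHR before the mitotic genes. Capitals mark the motifs, in the letters above or their reverse complement, and each stretch runs 5′ to 3′ towards the gene. Positions are in GRCr8: Mcm5 at chr19:13488668-13488812 (plus strand), Tyms at chr9:120776084-120776143 (minus), Mki67 at chr1:199952683-199952788 (minus), Cks2 at chr17:13727520-13727664 (minus), Hmmr at chr10:25665251-25665375 (minus), Cdca3 at chr4:159321078-159321133 (plus), Cenpk at chr2:37094207-37094247 (plus) and Cenpf at chr13:103760946-103761021 (minus). In Mki67 the last CHR and the last CCAAT box share 1 base.
Mcm5: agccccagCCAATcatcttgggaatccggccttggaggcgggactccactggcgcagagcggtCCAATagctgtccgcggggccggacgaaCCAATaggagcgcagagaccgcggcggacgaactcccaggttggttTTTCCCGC
Tyms: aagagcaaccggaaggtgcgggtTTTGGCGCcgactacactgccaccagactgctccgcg
Mki67: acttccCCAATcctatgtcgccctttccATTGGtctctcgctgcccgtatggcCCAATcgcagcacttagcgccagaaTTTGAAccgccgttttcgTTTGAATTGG
Cks2: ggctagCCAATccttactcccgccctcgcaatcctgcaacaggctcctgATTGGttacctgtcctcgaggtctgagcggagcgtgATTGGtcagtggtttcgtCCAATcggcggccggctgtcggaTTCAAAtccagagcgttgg
Hmmr: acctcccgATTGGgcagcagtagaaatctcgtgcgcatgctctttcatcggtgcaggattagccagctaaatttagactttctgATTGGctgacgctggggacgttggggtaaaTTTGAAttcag
Cdca3: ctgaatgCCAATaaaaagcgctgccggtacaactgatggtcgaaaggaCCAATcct
Cenpk: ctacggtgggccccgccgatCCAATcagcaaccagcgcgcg
Cenpf: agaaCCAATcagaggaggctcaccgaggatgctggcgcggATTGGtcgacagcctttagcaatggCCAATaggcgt
No promoter window of Aurkb was matched, and neither were those of Mcm4, Ccne2, Ccna2, Pbk, Racgap1, Ube2c and Foxm1. The windows of Nuf2, Kif2c and Melk, which also rose, hold none of these motifs.

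Of the 6 genes of the replicative helicase, 2 rose in fibrotic bronchi. Mcm2 to Mcm7 form the ring that is loaded at origins before S phase and unwinds the DNA within it. Mcm5 had log2 signals of 10.55, 10.40 and 10.89 in fibrotic bronchi, 10.04, 9.69 and 9.70 in non-fibrotic bronchi, and 7.41 to 8.96 with a median of 8.61 in controls. All 6 exposed arrays lay above all controls, and the fibrotic arrays above the non-fibrotic ones. The log2 fold change to control was 2.18 (SE 0.31, adjusted p = 1.57e-04) in fibrotic bronchi and 1.37 (SE 0.31, adjusted p = 0.0249) in non-fibrotic bronchi. Mcm4 rose by a log2 of 1.53 (SE 0.30, adjusted p = 0.00197) in fibrotic bronchi, where its mean was 10.83 ± 0.33 against 9.43 ± 0.53 in non-fibrotic bronchi (SD, 3 arrays each) and 9.30 ± 0.40 in controls (SD, 6 arrays), and this call was lost without fibrotic 3 and with controls 1 and 2 alone (highest adjusted p 0.0301). Its change in non-fibrotic bronchi was 0.13 (SE 0.30), and the difference between the exposed groups was 1.40 (SE 0.34, adjusted p = 0.0175), above the threshold used here.

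Mcm6 was the replication gene that set the exposed groups furthest apart. It had 8.89, 9.10 and 9.91 in fibrotic bronchi, 8.47, 4.66 and 6.01 in non-fibrotic bronchi, and 7.93 to 8.85 with a median of 8.20 in controls. The fibrotic arrays lay above all others, and non-fibrotic 8 and 10 lay under the level of absent transcripts while non-fibrotic 4 lay within the controls. The difference between fibrotic and non-fibrotic bronchi was 2.92 (SE 0.69, adjusted p = 0.0139), and 2.13 with low arrays set to that level. Mcm3 stood 1.64 higher in fibrotic bronchi than in controls (SE 0.43, adjusted p = 0.014).

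The remaining replication genes did not pass the threshold. Mcm2 had 7.83, 8.31 and 8.76 in fibrotic bronchi, 8.45, 8.03 and 7.98 in non-fibrotic bronchi and 7.13 to 7.98 with a median of 7.73 in controls, with 1 fibrotic array inside the control range (log2 fold change 0.68, SE 0.35, adjusted p = 0.195). Pcna, the sliding clamp, had 11.45, 11.53 and 11.80 in fibrotic bronchi, 11.52, 11.31 and 10.64 in non-fibrotic bronchi, and 10.45 to 11.64 with a median of 11.44 in controls. Its groups overlapped, the log2 fold change in fibrotic bronchi was 0.32 (SE 0.27, adjusted p = 0.441), and in non-fibrotic bronchi it was -0.11 (SE 0.27). Mcm7 differed by 0.67 (SE 0.27, adjusted p = 0.0953) in fibrotic bronchi.

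Among the genes of nucleotide supply Tyms, thymidylate synthase, rose by 1.67 in fibrotic bronchi (SE 0.39, adjusted p = 0.00734). Its mean was 9.24 ± 0.44 in fibrotic bronchi and 9.18 ± 0.80 in non-fibrotic bronchi (SD, 3 arrays each), against 7.57 ± 0.47 in controls (SD, 6 arrays), and the difference between the exposed groups was 0.06 (SE 0.45). This call was lost under 12 of 25 alternatives, among them leaving out any one of the fibrotic arrays or of controls 3 to 6. The change in fibrotic bronchi was 1.09 (SE 0.37, adjusted p = 0.0515) for Rrm1, the large subunit of ribonucleotide reductase, and 0.81 (SE 0.49) for Tk1, the cytosolic thymidine kinase. Ccne1 and Ccne2, the cyclins E that drive entry into S phase, differed by 1.37 (SE 0.65) and 0.84 (SE 0.49), neither past the threshold. With low arrays set to the level of absent transcripts, the change of Ccne1 was 0.77. A second probe set of Ccne2 ran the other way, at -0.42 (SE 0.37) in fibrotic and -0.26 (SE 0.37) in non-fibrotic bronchi.

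Mki67, which encodes the Ki-67 antigen that coats mitotic chromosomes and is the common histological marker of cycling cells, rose in both tissues of the exposed rats. It had 12.01, 12.45 and 12.96 in fibrotic bronchi, 12.04, 11.35 and 11.96 in non-fibrotic bronchi, and 9.19 to 11.11 with a median of 9.72 in controls. Every exposed array lay above every control, of which control 1 was the highest. The log2 fold change to control was 2.62 (SE 0.35, adjusted p = 7.8e-05), or 6.15-fold, in fibrotic bronchi and 1.93 (SE 0.35, adjusted p = 0.00973), or 3.81-fold, in non-fibrotic bronchi. The exposed groups differed by 0.69 (SE 0.40, adjusted p = 0.332). The call in fibrotic bronchi was lost only with controls 1 and 2 alone (adjusted p = 0.013), whereas that in non-fibrotic bronchi was lost under 18 of 25 alternatives, with adjusted p between 6.3e-04 and 0.249, and did not survive the loss of any single array other than control 1. Top2a, the topoisomerase that untangles sister chromosomes, had 8.75, 8.75 and 9.72 in fibrotic bronchi, 8.98, 7.71 and 9.41 in non-fibrotic bronchi, and 6.71 to 8.06 with a median of 7.37 in controls. Its fibrotic arrays lay above all controls, and the change of 1.74 (SE 0.45, adjusted p = 0.0126) just missed the threshold.

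**Figure D5:**
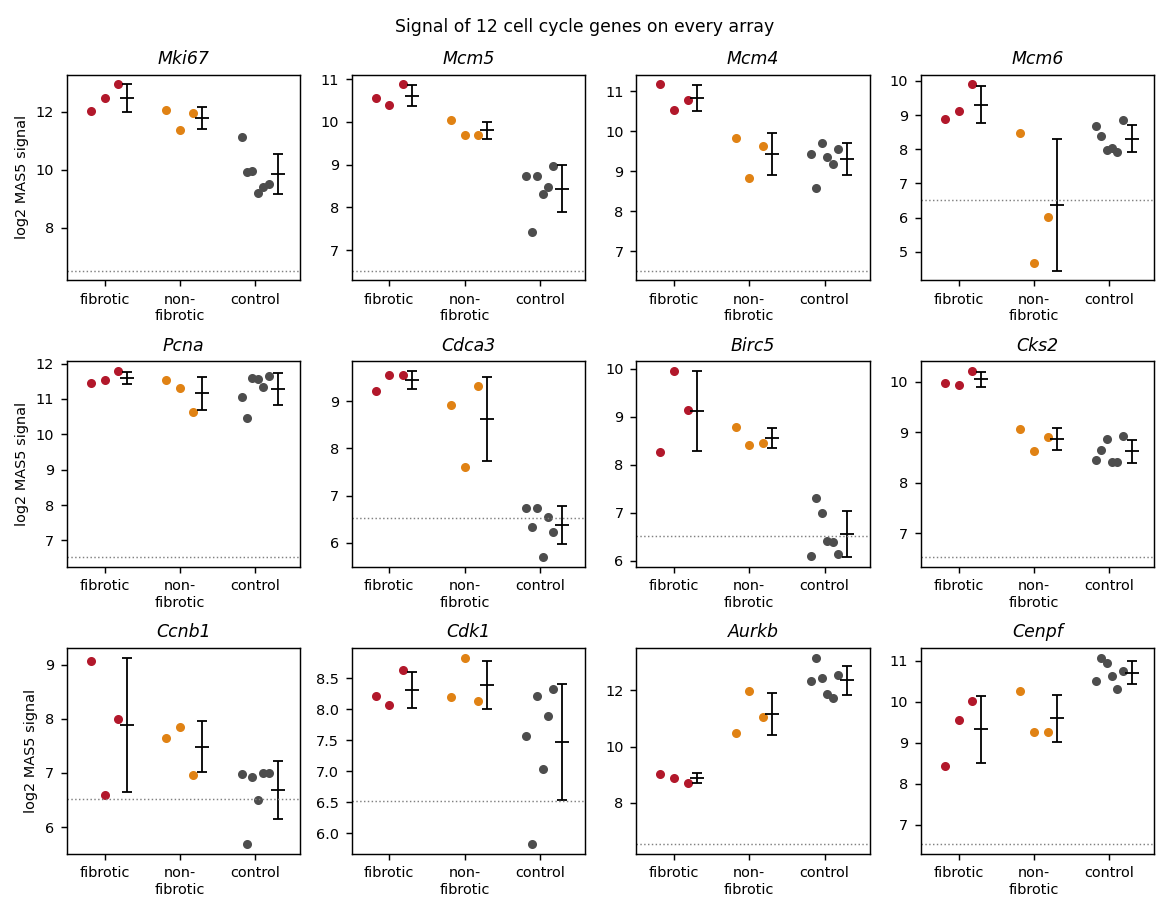
Log2 MAS5 signal of 12 members on every array, with the mean and SD of each group as a bar beside its points (3 fibrotic, 3 non-fibrotic and 6 control arrays) and the level of absent transcripts, 6.52, as a dotted line. All 6 exposed arrays lie above the controls for Mki67, Mcm5, Cdca3 and Birc5, all fibrotic but not all non-fibrotic arrays do for Mcm4, Mcm6 and Cks2, and Aurkb runs the other way.

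Cdca3, a mitotic entry factor that marks Wee1 for destruction, had 9.23, 9.56 and 9.57 in fibrotic bronchi, 8.92, 7.61 and 9.33 in non-fibrotic bronchi, and 5.69 to 6.74 with a median of 6.44 in controls. Exposed arrays and controls did not overlap, and 3 of the 6 controls were under the level of absent transcripts. It rose by 3.07 in fibrotic bronchi (SE 0.41, adjusted p = 7.84e-05), or by 2.85 with low arrays set to that level. In non-fibrotic bronchi it was 2.24 higher (SE 0.41), and its adjusted p of 0.0101 just missed the threshold. Cdc20, an activator of the anaphase-promoting complex, differed by 0.65 (SE 0.32) in fibrotic bronchi and 0.92 (SE 0.32) in non-fibrotic bronchi, with all exposed arrays above all controls. Ube2c, a ubiquitin-conjugating enzyme of that complex, stood 1.58 higher in fibrotic bronchi (SE 0.53, adjusted p = 0.0486).

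Cks2, a small subunit of cyclin-dependent kinases, rose in fibrotic bronchi. It had 9.98, 9.94 and 10.22 in fibrotic bronchi, 9.06, 8.63 and 8.90 in non-fibrotic bronchi, and 8.41 to 8.93 with a median of 8.55 in controls. The fibrotic arrays lay above every other array, while non-fibrotic and control arrays overlapped. Its log2 fold change in fibrotic bronchi was 1.43 to controls (SE 0.25, adjusted p = 8.62e-04) and 1.18 to non-fibrotic bronchi (SE 0.29, adjusted p = 0.017), and that of non-fibrotic bronchi to controls was 0.24 (SE 0.25).

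The cyclins and the kinase that start mitosis did not pass the threshold in any comparison. Ccnb1 had 9.07, 6.60 and 8.00 in fibrotic bronchi, 7.64, 7.86 and 6.96 in non-fibrotic bronchi, and 5.68 to 7.01 with a median of 6.96 in controls. Fibrotic 7 lay among the controls, so the change of 1.20 in fibrotic bronchi had a wide error (SE 0.52, adjusted p = 0.125). A second probe set of Ccnb1 gave 2.28 (SE 0.58, adjusted p = 0.0124). Cdk1 had 8.21, 8.07 and 8.63 in fibrotic bronchi, 8.19, 8.83 and 8.13 in non-fibrotic bronchi and 5.82 to 8.32 with a median of 7.73 in controls. Its groups overlapped, at 0.83 (SE 0.49) in fibrotic and 0.91 (SE 0.49) in non-fibrotic bronchi. Ccna2 had 6.86, 6.50 and 7.64 in fibrotic bronchi, 7.14, 7.13 and 6.74 in non-fibrotic bronchi, and 2.59 to 5.81 with a median of 5.50 in controls. All its controls were under the level of absent transcripts and all exposed arrays lay above them, which gives at least 1.4-fold in each exposed group with adjusted p = 0.0463 in fibrotic and 0.0749 in non-fibrotic bronchi. Ccnb2 stood 1.38 higher in fibrotic bronchi (SE 0.39, adjusted p = 0.0225).

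The 3 members of the chromosomal passenger complex, which corrects wrong attachments of chromosomes and guides cytokinesis, did not move together. Birc5, or survivin, had 8.28, 9.95 and 9.15 in fibrotic bronchi, 8.80, 8.42 and 8.46 in non-fibrotic bronchi, and 6.10 to 7.31 with a median of 6.40 in controls. Exposed arrays lay above all controls, and the change in fibrotic bronchi was 2.57 (SE 0.42, adjusted p = 4.61e-04), or 2.40 with low arrays set to the level of absent transcripts. In non-fibrotic bronchi it was 2.00 (SE 0.42, adjusted p = 0.0183). The call in fibrotic bronchi was lost with controls 1 and 2 alone and with the style of the labels as a term (highest adjusted p 0.0406). Cdca8, or borealin, had 9.36, 8.69 and 9.51 in fibrotic bronchi, 9.12, 9.44 and 9.92 in non-fibrotic bronchi, and 7.73 to 8.30 with a median of 8.09 in controls. It too had all exposed arrays above all controls, and the change was 1.15 (SE 0.29, adjusted p = 0.0127) in fibrotic and 1.45 (SE 0.29, adjusted p = 0.0155) in non-fibrotic bronchi, neither past the threshold.

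Aurkb, the kinase of that complex, fell in fibrotic bronchi. It had 9.04, 8.88 and 8.69 in fibrotic bronchi, 10.47, 11.96 and 11.07 in non-fibrotic bronchi, and 11.73 to 13.17 with a median of 12.40 in controls. The fibrotic arrays lay under all others, and only non-fibrotic 8 reached into the control range. The log2 fold change in fibrotic bronchi was -3.48 to controls (SE 0.32, adjusted p = 2.3e-06), or 11.2-fold lower, and -2.30 to non-fibrotic bronchi (SE 0.37, adjusted p = 0.00108), or 4.92-fold lower. In non-fibrotic bronchi it was -1.19 to controls (SE 0.32, adjusted p = 0.0436). The call against controls held under all 25 alternatives, and that between the exposed groups was lost under 3 of 25. The gene has 1 probe set on the array, so no second measurement of it was at hand. In controls the mean of this probe set, 12.35, was the highest of all members measured. The control means were 11.27 for Pcna and 9.85 for Mki67, and 8.04 for Cdca8 and 6.56 for Birc5 of the same complex. Whether the probe set reports the transcript of Aurkb alone was not tested.

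Ciliated and club cell markers were also lower in fibrotic bronchi. Of 9 measured ciliated cell markers, 9 fell there, with a median log2 fold change of -4.45, where 8.38% of all genes fell. In non-fibrotic bronchi 1 fell, with a median of -0.40, where 0.436% of all genes fell. Their log2 summed signal was 12.3 to 12.5 on fibrotic arrays, 14.7 to 15.3 on non-fibrotic arrays and 15.1 to 15.5 on control arrays, and 0 of the 9 were under the level of absent transcripts on all fibrotic arrays. Foxj1, the transcription factor of motile cilia, averaged 7.64 ± 0.81 in fibrotic bronchi, 12.39 ± 0.41 in non-fibrotic bronchi and 12.35 ± 0.32 in controls (SD), and Tubb4b, a tubulin of the axoneme, averaged 11.89 ± 0.13 in fibrotic bronchi, 12.77 ± 0.28 in non-fibrotic bronchi and 13.05 ± 0.35 in controls. Club cell markers fell for 6 of 7 in fibrotic bronchi, with a median of -5.99 in fibrotic and -0.22 in non-fibrotic bronchi. On all fibrotic arrays 2 of the 7 lay under the level of absent transcripts, so their part of the fibrotic median rests on values under that level. The part of these cells in the fall of Aurkb was not tested.

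At the kinetochore, the plate that ties chromosomes to the spindle, 2 of 10 members rose in fibrotic bronchi (4.13% of all genes) and 1 fell (8.38% of all genes). Cenpk, a subunit of the inner kinetochore, rose by 2.10 (SE 0.42, adjusted p = 0.00267) and had a mean of 8.51 ± 0.65 in fibrotic bronchi and 8.09 ± 0.57 in non-fibrotic bronchi (SD, 3 arrays each), against 6.41 ± 0.40 in controls (SD, 6 arrays). With low arrays set to the level of absent transcripts its change was 1.89, and its call was lost without fibrotic 9 and with controls 1 and 2 alone (highest adjusted p 0.0482). Nuf2, a subunit of the Ndc80 complex that grips microtubules, rose by 2.12 (SE 0.50, adjusted p = 0.0074), or by 1.9 with low arrays set to that level. The Nuf2 call was lost under 13 of 25 alternatives, among them leaving out any array of fibrotic bronchi or of controls 2 to 6 (highest adjusted p 0.157). A floor at that level and the style of the labels as a term were also among them. Cenpf, a large protein of the outer kinetochore, fell by 1.38 (SE 0.33, adjusted p = 0.00848). It had 8.43, 9.55 and 10.01 in fibrotic bronchi, 10.26, 9.27 and 9.26 in non-fibrotic bronchi, and 10.33 to 11.08 with a median of 10.69 in controls. All 6 exposed arrays lay under all controls, and the call was lost under 14 of 25 alternatives, among them leaving out fibrotic 3, fibrotic 7 or any of controls 2 to 6 (highest adjusted p 0.138).

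The other kinetochore and checkpoint genes did not pass the threshold. Mad2l1, a checkpoint protein that holds back anaphase, differed by 0.88 (SE 0.46) in fibrotic bronchi on the probe set used, while its second probe set gave 1.62 (SE 0.40, adjusted p = 0.00951). Bub1b, a checkpoint kinase homolog, was at least 1.93-fold higher in fibrotic bronchi (adjusted p = 0.0402), with all 6 controls and fibrotic 3 under the level of absent transcripts. Changes of Spc25, Bub1 and Cenpa lay between 1.45 and 2.32 with standard errors of 0.54 to 0.84. With low arrays set to the level of absent transcripts they were 1.46, 0.65 and 1.47. Ttk and Cenpe averaged 6.39 and 5.19 in fibrotic bronchi, under the level of absent transcripts, as were all their controls, so no fold change is given.

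Among spindle genes Kif2c, a motor that takes microtubules apart, was at least 2.35-fold higher in fibrotic bronchi (adjusted p = 0.00362), its means being 7.75 ± 0.68 in fibrotic and 7.05 ± 0.70 in non-fibrotic bronchi (SD, 3 arrays each) against 5.06 ± 0.73 in controls (SD, 6 arrays). Hmmr, the hyaluronan-mediated motility receptor that also sits on spindles, was at least 3.18-fold higher (adjusted p = 0.00608), with 8.04, 7.92 and 8.60 in fibrotic bronchi, 7.45, 5.79 and 7.50 in non-fibrotic bronchi, and 5.20 to 6.41 with a median of 6.17 in controls. For both genes all controls were under the level of absent transcripts, and the second probe set did not pass (adjusted p = 0.115 for Kif2c and 0.0523 for Hmmr). The call of Kif2c was lost under 7 of 25 alternatives, among them without fibrotic 7 or 9. It was also lost with a floor at the level of absent transcripts and with the style of the labels as a term. The call of Hmmr was lost under 12 of 26 alternatives, among them without any fibrotic array or any of controls 3 to 6. It was also lost with the style of the labels as a term. Nusap1, Kif11 and Dlgap5 did not pass, at 1.09, 1.60 and 0.27. With low arrays set to the level of absent transcripts, the change of Kif11 was 1.1.

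Melk, a kinase of cycling progenitor cells, rose by 3.15 in fibrotic bronchi (SE 0.66, adjusted p = 0.00351), or by 1.98 with low arrays set to the level of absent transcripts. It averaged 8.50 ± 0.48 in fibrotic bronchi and 7.47 ± 1.07 in non-fibrotic bronchi (SD, 3 arrays each), against 5.35 ± 1.14 in controls (SD, 6 arrays), and the call was lost under 5 of 24 alternatives, among them without fibrotic 3 or fibrotic 7 (highest adjusted p 0.027). Aurka and Plk1, kinases of the centrosome and of mitotic entry, differed by 1.20 (SE 0.48) and 0.88 (SE 0.38), and Plk4, the kinase of centriole duplication, by -0.52 (SE 0.53). Pbk was under the level of absent transcripts on all 12 arrays, as was Kif18a, so no fold change is given for either, and both stay in the counts of members measured.

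Of the 6 cytokinesis genes 0 passed the limma threshold in any comparison, and at an unadjusted p under 0.05 there were 1 lower in fibrotic bronchi than in controls (18.1% of all genes), 2 higher in non-fibrotic bronchi than in controls (13.8%) and 2 higher in fibrotic than in non-fibrotic bronchi (14.3%). In fibrotic bronchi Kif20a, Racgap1 and Ect2 were 0.98, 1.08 and 1.04 higher (SE 0.53 to 0.65), and Kif23 differed by 0.16 (SE 0.27). With low arrays set to the level of absent transcripts, Kif20a was 0.82 and Ect2 0.32 higher. Kif20b lay above controls on all fibrotic arrays (at least 1.89-fold, adjusted p = 0.22) and its SD was 3.95 in non-fibrotic bronchi, where non-fibrotic 8 had -0.83, against 0.57 in controls. Prc1, which bundles the central spindle, ran the other way at -0.57 (SE 0.26, adjusted p = 0.139). Foxm1, the transcription factor of the mitotic genes, had 6.73, 6.61 and 7.34 in fibrotic bronchi, 6.21, 3.00 and 7.54 in non-fibrotic bronchi and 5.17 to 7.33 with a median of 6.52 in controls. Its groups overlapped and its signals were near the level of absent transcripts, at 0.43 (SE 0.78) in fibrotic and -0.89 (SE 0.78) in non-fibrotic bronchi. A second probe set of Foxm1, with a mean of 5.03 over all arrays, gave -1.50 (SE 0.97) in fibrotic and -0.57 (SE 0.97) in non-fibrotic bronchi.

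Other genes of the cycle were read from 8 lists, whose counts stand beside the 4.13% of all genes that rose and the 8.38% that fell in fibrotic bronchi. In non-fibrotic bronchi 0.183% of all genes rose and 0.436% fell against controls. Between fibrotic and non-fibrotic bronchi 1.47% rose and 3.83% fell. At an unadjusted limma p under 0.05, 19.2% of all genes were higher in fibrotic bronchi than in controls. Of 9 measured G1 cyclins and kinases, 1 rose in any comparison: Ccnd1, cyclin D1, was 1.66 higher in non-fibrotic bronchi than in controls (SE 0.22, adjusted p = 0.00177), and averaged 12.73 ± 0.41 in fibrotic and 13.61 ± 0.36 in non-fibrotic bronchi against 11.95 ± 0.30 in controls (SD). Of 8 Cdk inhibitors, Cdkn1a, or p21, rose by 1.15 in non-fibrotic bronchi (SE 0.20, adjusted p = 0.00814), and Cdkn1c, or p57, fell in fibrotic bronchi, with a log2 fold change of -3.66 to controls (SE 0.61, adjusted p = 5.86e-04) and of -3.76 to non-fibrotic bronchi (SE 0.71, adjusted p = 0.00337). Of 14 genes of origin licensing and firing, 1 rose in fibrotic bronchi, Gins1, a helicase subunit (2.46, SE 0.53, adjusted p = 0.00415, or 1.74 with low arrays set to the level of absent transcripts), and 1 fell, Gmnn, or geminin, which blocks relicensing (-1.62, SE 0.28, adjusted p = 8.13e-04). Their median log2 fold change in fibrotic bronchi was 1.08, and that of 21 replication fork genes, of which 0 passed in either direction and 9 were higher at an unadjusted limma p under 0.05, was 0.58. Of 16 cohesin and condensin genes, Smc4 and Espl1 rose, and of 18 Rb, E2F and DREAM genes Lin52 fell. Of 5 checkpoint kinases 0 passed the limma threshold. In fibrotic bronchi 1 of them was higher at an unadjusted p under 0.05, near the 19.2% of all genes, with a median of 0.84.

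Centriole duplication shares Plk4 with the cycle and is also run by multiciliated cells without division. Of 9 measured genes 3 fell in fibrotic bronchi, where 8.38% of all genes fell. All 3 were from the ciliated program: Ccno (-5.45, SE 0.84, adjusted p = 2.75e-04, or -4.12 with low arrays set to the level of absent transcripts), Deup1 (at least 6.08-fold lower, adjusted p = 0.00158) and Gmnc (at least 2.16-fold lower, adjusted p = 6.28e-05), whose protein is a relative of geminin. The median of the list was 0.15. In non-fibrotic bronchi 0 of 9 passed the limma threshold in either direction. At an unadjusted p under 0.05, 1 was higher and 1 lower, where 13.8% of all genes were higher and 13.8% lower. The changes of Ccno and Gmnc were -0.32 and 0.06.

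Markers of other cells also moved in fibrotic bronchi, where 12 of 53 members rose and 2 fell. Of all genes, 4.13% rose and 8.38% fell there. Macrophage markers rose for 5 of 11, with a median of 3.20 in fibrotic and -0.84 in non-fibrotic bronchi, and their log2 summed signal was 14.1 to 15.0 on fibrotic, 10.9 to 13.5 on non-fibrotic and 11.6 to 12.5 on control arrays. Fibroblast markers rose for 6 of 11, with medians of 1.85 in fibrotic and 0.37 in non-fibrotic bronchi, and sums of 16.2 to 16.7 on fibrotic, 15.2 to 15.8 on non-fibrotic and 14.9 to 15.7 on control arrays. Lymphocyte markers passed the limma threshold for 0 of 11, of which 3 were higher in fibrotic bronchi at an unadjusted p under 0.05 (19.2% of all genes). Their median was 1.65 in fibrotic and -1.17 in non-fibrotic bronchi. Basal and squamous markers rose for 1 of 10 with medians of 2.01 in fibrotic and -0.05 in non-fibrotic bronchi, endothelial markers for 1 of 9 and smooth muscle markers for 0 of 8 (0 at an unadjusted p under 0.05), while 4 of 10 alveolar markers fell and 1 rose. Their part in the changes of these 14 members was not tested.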

How the data were processed

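The authors ran MAS5, and the deposited intensity values are its linear signals, 1 per probe set and array, brought by them to a common trimmed mean. RNA (20 ng) had been amplified before labelling. Of 31099 probe sets, 57 Affymetrix controls were set aside and 31042 were tested with no filter: 20826 of them carry 1 gene symbol, 436 several and 9780 none. The series text names another rat array design than the one to which the probe sets belong, and the annotation of the probe sets was used. Signals were taken to log2, and 1 model of the 3 groups was fitted with limma 3.58.1 (lmFit, and eBayes with trend) in R 4.3.3, checked on simulated data. Adjusted p-values are Benjamini-Hochberg values within a contrast, called under 0.01. The level of absent transcripts is the highest of 84 values of bacterial transcripts not added to those samples. Array values are given for 8 measured proliferation markers and for the 6, 4 and 3 members of smallest p in the 3 contrasts, and Hmmr, Cenpf and, of other cycle genes, those past the 5 of smallest p were named after their values were seen. The members and lists were chosen with earlier results of these data known. Replicates are arrays of separate specimens, and p-values measure their spread only. Their number limits the precision. Alternatives changed threshold, filter, floor, pseudocount of 16, normalization, variance model, controls, probe sets and single arrays. Promoters were RefSeq's (GRCr8). Figures were drawn with matplotlib 3.10.9. Columns of unmapped samples numbered 0.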

Additional observations from a re-analysis of the deposited data

Results flagged for a closer look

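In the control group of 6 arrays, 8 of 53 members had a highest or lowest array whose gap to the nearest other, over the range of the group, passed Dixon's critical value for 6 samples. Chance flags about 1 in 20 groups. Of the 8, 4 were set by control 2 and 3 by control 1. Control 2 was high for Tk1 (8.96) and low for Aurka (5.53), Bub1 (2.78) and Bub1b (1.95). Control 1 was low for Kif18a (-2.12), Kif23 (8.20) and Cdc20 (7.25), and control 6 was high for Dlgap5 (8.46). Aurka, Bub1, Bub1b and Kif18a lay under the level of absent transcripts on these arrays, where values have no order.

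The change of Aurkb to controls differed between the exposed tissues: fibrotic minus non-fibrotic was -2.30 (adjusted p = 0.00108), and all 3 fibrotic arrays lay under all 3 non-fibrotic arrays.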

How the results depend on the processing

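No value of a member that was past the threshold changed its direction under any alternative run. Of single-gene values, 4114 kept their side of the threshold, 83 passed it only under the alternative and 93 only in the chosen setting; the cause was not tested. The 12 members higher in fibrotic bronchi than in controls became 21 at an adjusted p under 0.05 and 1 with controls 1 and 2 alone, a fit with 2 controls, and 7 to 14 with single arrays left out. Of these 12, Tyms, Birc5, Nuf2, Kif2c and Hmmr lost their call with label form as a term. The 2 lower became 1 with a floor at the 20th percentile, quantile normalization, no intensity trend, controls 1 and 2 alone, controls 3 to 6 alone, label form as a term, or a floor at the level of absent transcripts (chosen after seeing the data), and 1 to 2 with single arrays left out. For non-fibrotic bronchi against controls, the 1 higher became 8 at an adjusted p under 0.05, 6 at over 2-fold with unadjusted p under 0.001, 2 with the lowest 40% of probe sets dropped, the 20th percentile floor, the pseudocount of 16 or median centring, 3 with quantile normalization, 6 with controls 3 to 6 alone, and 0 with no intensity trend, only the groups compared, controls 1 and 2 alone or label form as a term. Left-out arrays gave 0 to 2. The 0 lower became 1 at an adjusted p under 0.05, and left-out arrays gave 0 to 1, with 1 without non-fibrotic 4. Between fibrotic and non-fibrotic bronchi the 0 higher became 3 at an adjusted p under 0.05 and at over 2-fold with unadjusted p under 0.001, 2 with median centring, and 1 with the 20th percentile floor, controls 3 to 6 alone, the mean of probe sets or the floor at the level of absent transcripts, and 0 to 2 with single arrays left out. The 1 lower, Aurkb, became 0 with no intensity trend, array quality weights or the floor at the level of absent transcripts, and stayed 1 to 1 with single arrays left out. Mcm5 and Aurkb kept their call in fibrotic bronchi against controls under all 25 alternatives, and Mki67, Cdca3 and Cks2 lost it with controls 1 and 2 alone. No paired analysis was possible because the groups compared share fewer than 2 replicate numbers and the labels do not tie specimens to rats. Signals near those of absent transcripts limit mitotic genes most, since 14 to 23 members lay under that level on control arrays.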
